A study of Rattus norvegicus with 19 samples.

Results

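The 10 genes described here encode receptors and cofactors of the liver's nuclear receptor network: the drug sensors Nr1i2 and Nr1i3, the retinoid X receptors Rxra, Rxrb and Rxrg, the liver receptors Hnf4a, Nr5a2 and Nr2f2, the coactivator Ncoa1 and the corepressor Ncor1. They were chosen by name, and every probe set annotated to exactly 1 of them was taken. This gave 21 probe sets, 14 on the first of 2 Affymetrix array types, where all 10 genes were covered, and 7 on the second, where 5 were. The 2 array types named 13810 genes by single-gene probe sets.

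Livers came from adult rats that were fasted overnight and killed 8 h after 1 intraperitoneal injection. One group received pregnenolone-16α-carbonitrile (PCN) at 100 mg/kg and the control group received corn oil. The first array type held 5 PCN and 5 corn oil arrays, and the second 5 PCN and 4 corn oil arrays. The second has no array of corn oil replicate 2. Strain, sex and age are not given in the sources used here, and the labels call the replicates biological. The labels number replicates alike on both array types, so the 2 types are not read as separate sets of livers. Values are log2 levels per probe set. Probe sets differ in how strongly they bind their targets, so the level of one gene was not compared with that of another.

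Nuclear receptors are transcription factors switched by small lipophilic ligands, which bind DNA as monomers, homodimers or heterodimers with a retinoid X receptor and recruit coactivators or corepressors. In the liver the pregnane X receptor (Nr1i2) and the constitutive androstane receptor (Nr1i3) sense drugs and steroids and switch on genes of drug metabolism. PCN is a classic ligand of the rodent pregnane X receptor. The question addressed here is what level the sensors, their partners and their cofactors had at baseline, and whether those levels differed after PCN.

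The promoters of 3 members are shown because they carry the sensor of PCN (Nr1i2), the only receptor among the members whose level passed the test (Rxrg) and a receptor with the consensus half-site of the family next to its start (Nr5a2). Each window holds 250 bases before and 50 bases after the transcription start in RefSeq on GRCr8, read 5′ to 3′ on the gene's strand. Nr1i2 lies on the plus strand at chr11:75965467-75965766, Nr5a2 on the minus strand at chr13:50984889-50985188, and Rxrg on the plus strand at chr13:82276237-82276536. Capitals mark 2 forms of the half-site, AGGTCA and AGTTCA, searched on both strands.
Nr1i2: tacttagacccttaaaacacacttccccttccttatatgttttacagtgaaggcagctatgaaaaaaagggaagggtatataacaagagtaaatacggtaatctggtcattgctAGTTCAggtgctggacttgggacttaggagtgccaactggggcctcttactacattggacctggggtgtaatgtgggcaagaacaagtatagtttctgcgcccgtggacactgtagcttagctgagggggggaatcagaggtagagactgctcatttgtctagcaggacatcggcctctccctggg
Nr5a2: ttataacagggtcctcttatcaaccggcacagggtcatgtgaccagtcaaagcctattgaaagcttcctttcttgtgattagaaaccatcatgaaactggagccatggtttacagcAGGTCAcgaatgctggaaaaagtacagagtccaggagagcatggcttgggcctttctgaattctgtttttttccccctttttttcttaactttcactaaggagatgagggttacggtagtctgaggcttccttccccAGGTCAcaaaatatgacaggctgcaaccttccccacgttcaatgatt
Rxrg: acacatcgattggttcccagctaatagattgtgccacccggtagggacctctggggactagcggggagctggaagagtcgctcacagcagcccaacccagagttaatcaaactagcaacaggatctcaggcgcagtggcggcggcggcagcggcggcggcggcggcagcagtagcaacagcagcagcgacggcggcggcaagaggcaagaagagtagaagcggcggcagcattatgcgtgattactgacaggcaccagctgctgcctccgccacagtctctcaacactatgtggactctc
Nr1i2 held 1 AGTTCA, starting at position -136 from the transcription start. Nr5a2 held 2 copies of AGGTCA, at -134 and at 4, and Rxrg held neither form. Of 10 promoters found for 9 of the 10 genes, 2 held a half-site. Among all 33469 promoters of the same length, AGGTCA was present in 16.2% and AGTTCA in 14.5%, and 27.9% held either. A match describes letters in this window only and shows no binding.

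The labelled tissue was checked against hepatocyte markers. Albumin read 15.03 to 15.24 on the first array type, and the summed level of 7 hepatocyte markers was 17.08 to 17.22 in corn oil and 17.07 to 17.24 after PCN. None of the marker lists for endothelial cells, stellate cells and fibroblasts, macrophages, cholangiocytes, lymphocytes, red cells and neutrophils had a member past the limma test. Counting the hepatocyte list too, 0 of 30 markers on the first array type and 0 of 10 on the second were called. Of all tested probe sets 3.25% and 5.4% were called there. An unadjusted p below 0.05 (limma) was found for 6 and 3 markers, and for 17.7% and 27.3% of all probe sets. Counts this small are not read as differing from those shares. In bulk tissue, fewer cells of a type and less RNA per cell cannot be told apart.

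Corn oil replicate 2 stood apart on the first array type, and it did so for the receptors described here. Of 13 tested probe sets, 7 were lowest in this array, and 6 of these lay at least 0.3 below the next array. Among all 11106 tested probe sets, 15.6% were lowest there and 5.64% were lowest by at least 0.3. The 6 probe sets belonged to Hnf4a (2), Rxra, Nr5a2, Nr1i3 and Nr1i2. The largest gaps below the other 9 arrays were 2.02 for Hnf4a (1369289_at) and 1.84 for Rxra, followed by 0.86 for the other Hnf4a probe set, 0.79 for Nr5a2, 0.62 for Nr1i3 and 0.39 for Nr1i2. Both Nr2f2 probe sets, Rxrb and Ncoa1 (1390010_at) were highest in the same array, by 0.16, 0.03, 0.01 and 0.03. Among all tested probe sets 18.3% were highest there. Control probe sets at the 3′ and 5′ ends of 2 abundant transcripts give a measure of RNA integrity and of how far labelling ran along the transcript. The 3′ value exceeded the 5′ value by 2.28 (log2) for beta-actin and 2.02 for GAPDH in corn oil replicate 2, against 0.41 to 0.56 and 0.56 to 0.85 in the other 9 arrays. The hepatocyte marker sum was 17.08 in this array, inside the range of the others. The endothelial sum, 12.39, lay above their 11.85 to 12.14, and the cholangiocyte sum, 9.83, above their 9.33 to 9.61. Sums for the stellate and fibroblast, macrophage, lymphocyte, red cell and neutrophil lists lay inside the range of the others. Single markers of these lists did so too, except for Reln, Lrat and Acta2 of the stellate list and Alas2 of the red cells. These lay above the other arrays (10.69 against 10.07 to 10.62, 8.70 against 7.84 to 8.49, 7.96 against 7.36 to 7.83, and 10.83 against 9.52 to 10.59). Of the endothelial markers Kdr, Lyve1 and Vwf lay above and Pecam1 inside. Of the cholangiocyte markers, Epcam was above the other arrays (9.22 against 8.36 to 8.86). Krt7 and Krt19 lay inside their range and Spp1 just below it (7.07 against 7.08 to 7.52). Of the hepatocyte markers only Cps1 lay outside, at 12.41 against 13.00 to 13.76. The part of RNA quality or of cell make-up in the low receptor values was not tested. Changes of the tested member probe sets on the first array type are therefore given with and without this array.

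**Figure D1:**
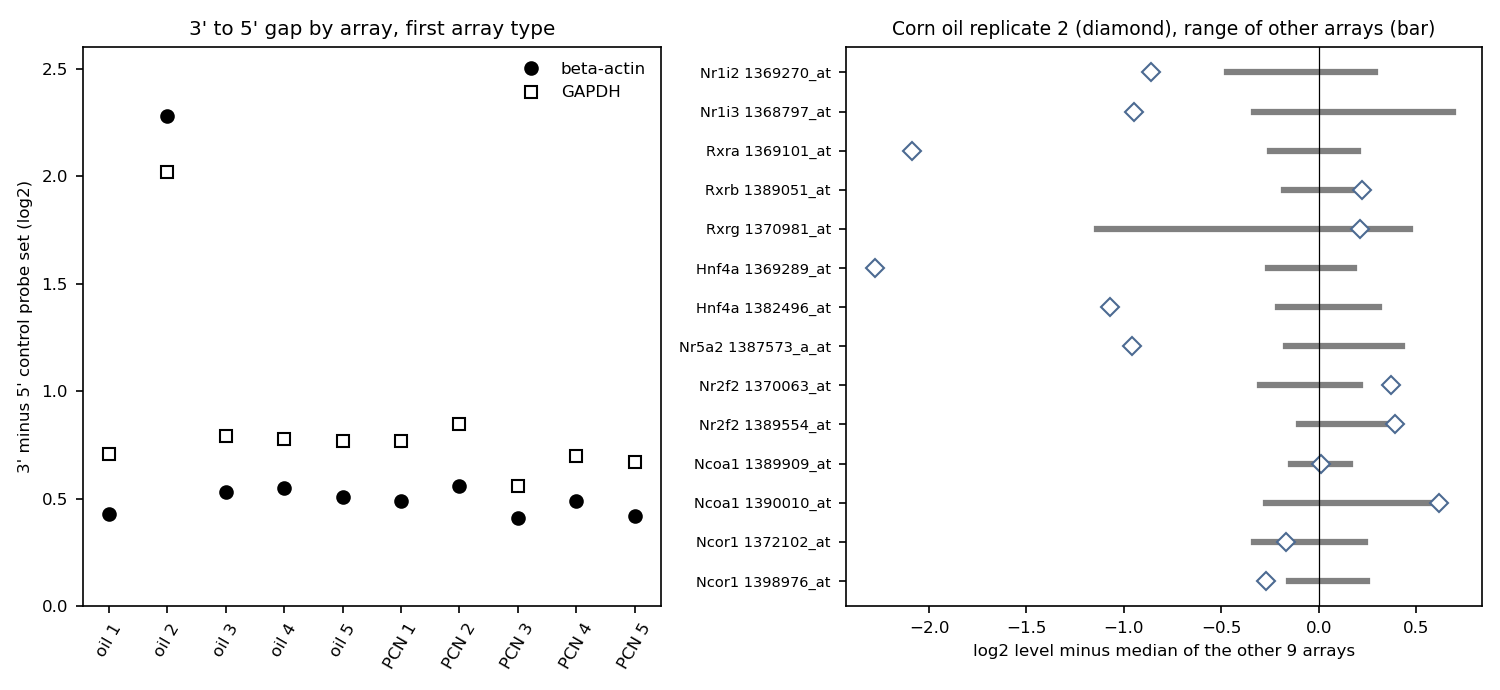
Left, difference between the 3′ and 5′ control probe sets of beta-actin and GAPDH (log2) on each array of the first type. Right, log2 level of each receptor or cofactor probe set in corn oil replicate 2 (diamond) relative to the median of the other 9 arrays, whose range is the grey bar. Corn oil replicate 2 has gaps of 2.28 and 2.02, and its values for Hnf4a, Rxra, Nr5a2, Nr1i3 and Nr1i2 fall below every other array.

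Across both array types 18 of the 21 probe sets were bright enough to be tested, 13 on the first and 5 on the second. On the first, 1 of 13 passed the limma threshold, an adjusted p below 0.05, where 3.25% of all tested probe sets did. On the second it was 1 of 5, where 5.4% did. The members called were Rxrg, lower, and Ncoa1, higher. With so few probe sets, 1 call on each array type is not read as a result about the network. The median log2 fold change (PCN minus corn oil) of the members was 0.10 on the first array type, beside 0.00 for all probe sets, and -0.05 without corn oil replicate 2. On the second it was 0.12, beside -0.03.

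**Figure D2:**
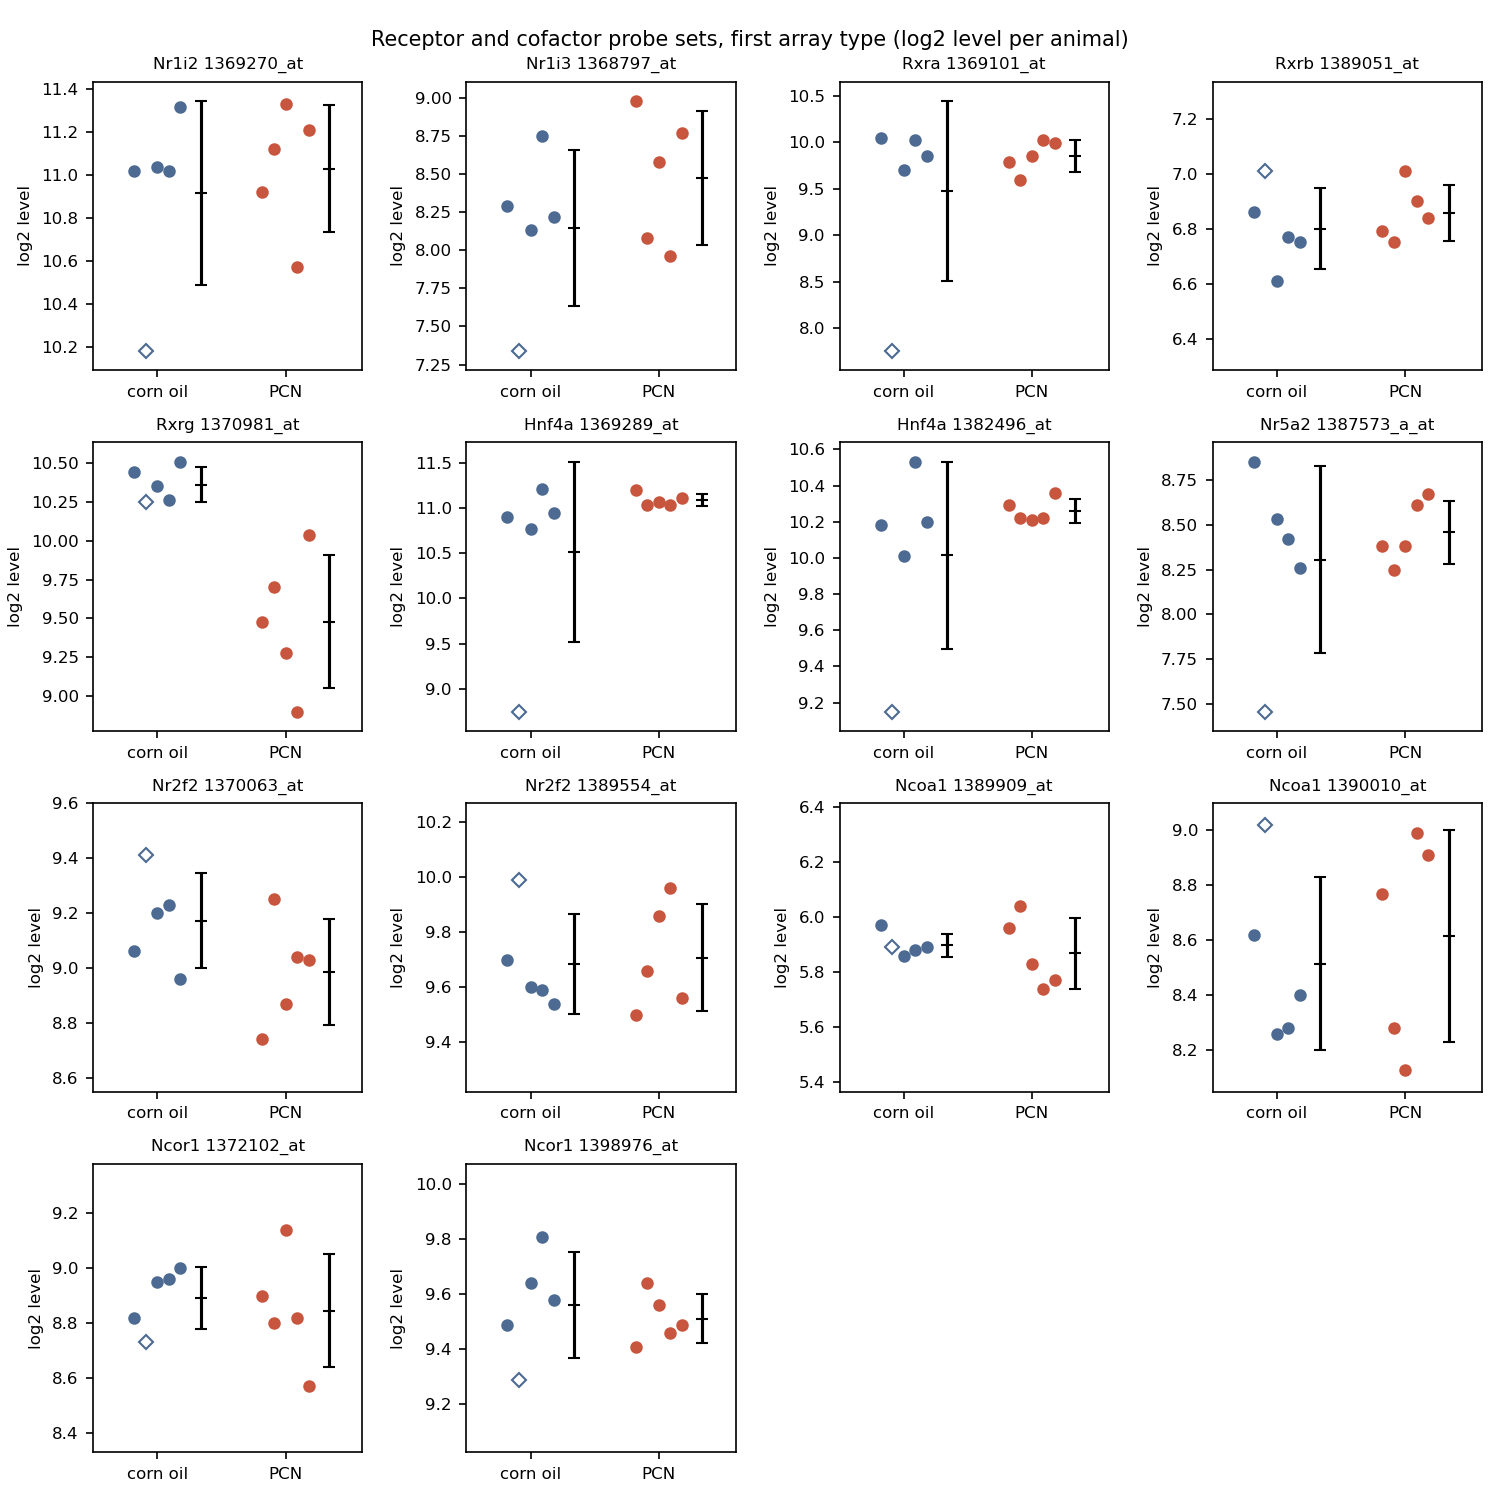
Log2 level of each member probe set in each liver on the first array type, corn oil (blue) and PCN (red), with the mean and SD as bars. The open diamond is corn oil replicate 2. The groups are apart for Rxrg, with 10.25 to 10.51 in corn oil and 8.90 to 10.04 after PCN.

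The sensors read above the brightness filter in every corn oil liver, and neither passed the test for a change after PCN. Nr1i2, the pregnane X receptor itself, read 11.02, 10.18, 11.04, 11.02 and 11.32 in corn oil replicates 1 to 5. After PCN it read 10.92, 11.12, 11.33, 10.57 and 11.21. Corn oil replicate 2 was lowest. Among the other livers the controls lay at 11.02 to 11.32 and the PCN group at 10.57 to 11.33, with PCN replicates 1 and 4 below those controls and the rest overlapping. The log2 fold change was 0.11 ± 0.20 (SE, n = 5 per group, adjusted p = 0.815, limma). Without corn oil replicate 2 it was -0.07 ± 0.15, with a 95% interval of -0.39 to 0.25, which covers changes from 0.762-fold to 1.19-fold.

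Nr1i3, which shares targets with Nr1i2 and moves from cytoplasm to nucleus when activated, varied more between livers. It read 8.29, 7.34, 8.13, 8.75 and 8.22 in corn oil and 8.98, 8.08, 8.58, 7.96 and 8.77 after PCN. PCN replicates 1, 3 and 5 were high and replicates 2 and 4 low, so that the groups overlapped. The log2 fold change was 0.33 ± 0.25 (SE, n = 5 per group, adjusted p = 0.546, limma), and without corn oil replicate 2 it was 0.13 ± 0.21 (95% interval -0.33 to 0.58, or 0.796-fold to 1.5-fold). It was 0.01 (adjusted p = 0.994, limma) in a fit with a term for 2 groups of arrays, which are given with the Rxrg values.

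Genes known as targets of these sensors were measured on the same arrays. From a list of 20 target genes, 14 were tested on the first array type, of which 10 rose and 0 fell (limma, with 0 lower also at an unadjusted p below 0.05), where 2.31% of all tested probe sets rose. The list's median log2 fold change was 0.78, and 11 rose without corn oil replicate 2. Alas1, which opens heme synthesis, had a log2 fold change of 1.74 ± 0.14 (SE), Ces2c, a carboxylesterase, 1.70 ± 0.23, and Cyp3a18 1.31 ± 0.19. Por, which supplies electrons to the P450s, had 1.27 ± 0.14, the efflux pump Abcb1a 1.03 ± 0.16 and the uptake carrier Slco1a4 0.84 ± 0.16, with adjusted p values of these 6 genes from 0.000119 to 0.0182 (limma, n = 5 per group). Cyp3a23-3a1 had 0.65 ± 0.10 (adjusted p = 0.00543, limma). Cyp3a2 missed the threshold at 1.56 ± 0.42 (adjusted p = 0.0663, limma), with PCN arrays spread from 7.07 to 9.85 against 6.27 to 6.76 in corn oil. The corn oil mean of Cyp3a2, 6.51, lay under the brightness filter of 6.67, so it was tested only through its PCN values. These targets were known to respond in earlier results of the same arrays, so they are no independent evidence. The call of Slco1a4 was lost without PCN replicate 1 (adjusted p = 0.0535, limma).

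Of the retinoid X receptors, the common partners of both sensors, only Rxrg was called. Its main probe set (1370981_at) read 10.44, 10.25, 10.35, 10.26 and 10.51 in corn oil. After PCN it read 9.48, 9.70, 9.28, 8.90 and 10.04. Every PCN liver lay below every corn oil liver, with replicate 4 lowest and replicate 5 nearest to the controls. Rxrg fell from 10.36 ± 0.11 to 9.48 ± 0.43 (SD, n = 5 each), a 1.84-fold lower level (log2 fold change -0.88 ± 0.18 SE, adjusted p = 0.0212, limma). On the first array type 0.945% of all tested probe sets were called lower, and 2.05% had PCN values below all corn oil values. Corn oil replicate 2, which was so low for Rxra, was at 10.25 for this probe set, and without it the log2 fold change was -0.91 ± 0.19 (adjusted p = 0.0246, limma), where 3.51% of all probe sets were called.

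The size of the Rxrg difference was steady, whereas its place beside the threshold was not. Leaving out single arrays gave log2 fold changes from -1.02 to -0.74, and the call was lost without corn oil replicate 4 (adjusted p = 0.0501), corn oil replicate 5 (0.0531), PCN replicate 1 (0.0535) or PCN replicate 3 (0.0569). An earlier analysis of these arrays described 2 sets. Corn oil replicate 1 stood with PCN replicates 1, 3, 4 and 5, and corn oil replicates 3 to 5 with PCN replicate 2. Set and treatment largely coincide, so a fit with a term for the sets separates them only in part. The mean of 9 bacterial spike-in controls was 8.61 to 8.90 in the first set and 8.36 to 8.54 in the second, and the SD over probe sets was 1.99 to 2.06 and 1.92 to 1.96. With a term for these sets, and without corn oil replicate 2, the log2 fold change of Rxrg was -0.85 ± 0.23 and its adjusted p 0.0792 (limma), where 2.79% of all probe sets were called. A second Rxrg probe set, on the second array type (1392271_at), read 6.87, 6.73, 6.94 and 6.95 in corn oil and 6.56, 6.70, 6.72, 6.82 and 6.79 after PCN. These groups overlapped, and the log2 fold change of -0.16 ± 0.07 (SE, adjusted p = 0.185, limma) was in the same direction. The 95% interval was -0.31 to 0.00 here and -1.27 to -0.50 for the first probe set, and a difference between separately scaled array types was not tested. Centring arrays on shared probe sets gave -0.44 for this second probe set (adjusted p = 0.00845, limma), a setting under which 58.8% of all probe sets of that array type were called lower.

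Rxra, the main partner of both sensors in hepatocytes, read 10.05, 7.76, 9.70, 10.02 and 9.85 in corn oil. After PCN it read 9.79, 9.60, 9.85, 10.03 and 9.99. Without corn oil replicate 2 the 9 remaining livers lay between 9.60 and 10.05. The log2 fold change of 0.38 ± 0.37 (SE, adjusted p = 0.638, limma) then turned to -0.05 ± 0.11 (adjusted p = 0.817, limma, 95% interval -0.30 to 0.20, or 0.81-fold to 1.15-fold). Rxrb, a widely expressed form, lay near the brightness filter with 6.61 to 7.01 in corn oil and 6.75 to 7.01 after PCN. Its log2 fold change was 0.06 ± 0.08 (SE, adjusted p = 0.765, limma), and 0.11 ± 0.08 without corn oil replicate 2 (adjusted p = 0.451, limma).

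**Figure D3:**
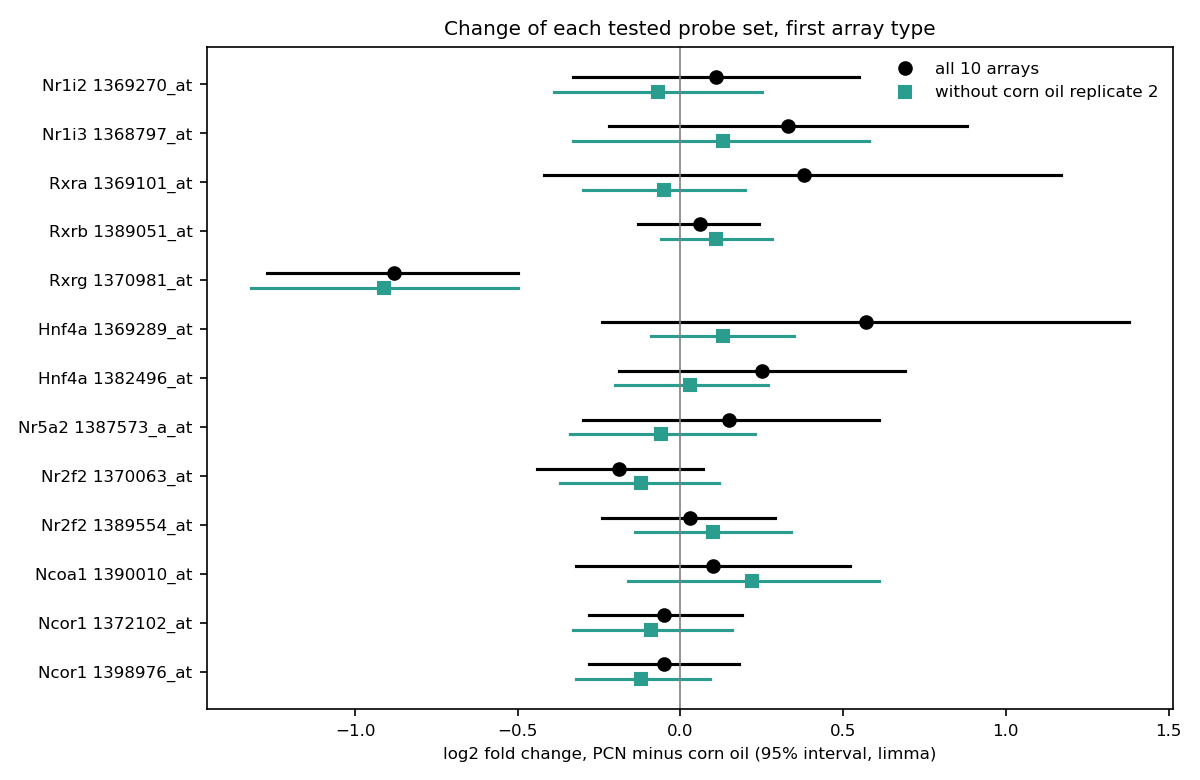
Log2 fold change (PCN minus corn oil) with its 95% interval from limma for the 13 tested probe sets of the first array type, with all 10 arrays (black) and without corn oil replicate 2 (green). The interval of Rxra narrows from -0.42 to 1.17 with all arrays to -0.30 to 0.20 without that array, and Rxrg stays below 0 in both.

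Hnf4a, which maintains the hepatocyte programme, was measured by 3 probe sets and passed the test by none. The brightest on the first array type (1369289_at) read 10.90, 8.75, 10.77, 11.21 and 10.94 in corn oil and 11.20, 11.03, 11.07, 11.03 and 11.11 after PCN. The 5 PCN livers lay close together, with an SD of 0.07, and corn oil replicate 2 lay below all of them and below the other controls. The log2 fold change moved from 0.57 ± 0.37 (SE, adjusted p = 0.464, limma) to 0.13 ± 0.10 without that array (adjusted p = 0.483, limma). The other (1382496_at) moved likewise, from 0.25 ± 0.20 to 0.03 ± 0.11. On the second array type, which has no array of that replicate, Hnf4a (1392969_at) read 11.75, 12.15, 12.10 and 11.74 in corn oil and 12.45, 12.30, 12.23, 12.15 and 12.16 after PCN. The lowest PCN value and the highest corn oil value were both 12.15, so the groups were not apart. The log2 fold change was 0.32 ± 0.12 (SE, unadjusted p = 0.0192, adjusted p = 0.116, limma). An unadjusted p below 0.05 was found for 27.3% of all probe sets there, and for 17.7% on the first array type. This probe set belonged to the brightest 10% of the second array type, whose median log2 fold change was 0.20, and cyclic loess scaling turned its value to -0.04.

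Nr5a2, the liver receptor homolog that drives bile acid and cholesterol genes, read 8.85, 7.46, 8.53, 8.42 and 8.26 in corn oil and 8.38, 8.25, 8.38, 8.61 and 8.67 after PCN. Replicate 2 was again the low value, and the other 9 livers overlapped fully. The log2 fold change was 0.15 ± 0.21 (SE, adjusted p = 0.743, limma) and -0.06 ± 0.13 without replicate 2 (95% interval -0.34 to 0.23). A list of 15 genes known as targets of Hnf4a or Nr5a2 had 12 members tested on the first array type, of which 2 rose and 0 fell (1 lower at an unadjusted p below 0.05), where 2.31% and 0.945% of all probe sets did. These were Abcg5 and Abcg8, the partner subunits of the biliary sterol exporter, which rose by 1.19 ± 0.18 and 1.03 ± 0.22 in log2 (SE, adjusted p = 0.00485 and 0.0279, limma). The call of Abcg8 was lost with the term for 2 sets of arrays (adjusted p = 0.112, limma), and without single arrays its adjusted p reached 0.0796 (without corn oil replicate 4). The list's median was -0.02. Nr0b2, a receptor without a DNA-binding domain that represses both regulators, spread from 8.09 to 10.40 in corn oil and from 9.67 to 10.79 after PCN, with a log2 fold change of 0.77 ± 0.40 (adjusted p = 0.35, limma), and 1.03 without corn oil replicate 2 (adjusted p = 0.144, limma).

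Nr2f2, also called COUP transcription factor II and known from endothelial and stromal cells as well as hepatocytes, had 3 probe sets. On the first array type, 1370063_at read 8.96 to 9.41 in corn oil and 8.74 to 9.25 after PCN, a log2 fold change of -0.19 ± 0.12 (SE, adjusted p = 0.448, limma). The other, 1389554_at, read 9.54 to 9.99 and 9.50 to 9.96, a log2 fold change of 0.03 ± 0.12 (adjusted p = 0.932, limma). Leaving out corn oil replicate 2 gave -0.12 ± 0.11 and 0.10 ± 0.11 (adjusted p = 0.554 and 0.619, limma), and with the term for 2 sets of arrays -0.01 and 0.05. They differed in sign, and the second changed sign with quantile, trimmed mean, cyclic loess and common probe set scaling. The summed endothelial markers were 11.93 to 12.39 in corn oil and 11.85 to 12.06 after PCN, and the stellate and fibroblast sum 12.26 to 12.75 and 12.63 to 12.93. The third probe set, on the second array type (1395863_at), was just under the brightness filter at 5.51, with means of 5.52 ± 0.04 (SD, n = 4) and 5.44 ± 0.14 (SD, n = 5).

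Ncoa1, a histone acetyltransferase that coactivates many nuclear receptors, was called higher by 1 of its 3 probe sets. On the second array type 1383166_at read 8.49, 8.66, 8.68 and 8.34 in corn oil, and 9.13, 8.95, 8.95, 8.97 and 8.84 after PCN. All PCN livers were above all corn oil livers, as they were for 5.06% of all probe sets tested there. Ncoa1 rose from 8.54 ± 0.16 (SD, n = 4) to 8.97 ± 0.10 (SD, n = 5), a 1.34-fold higher level (log2 fold change 0.43 ± 0.09 SE, adjusted p = 0.0298, limma). On the first array type its tested probe set (1390010_at) read 8.62, 9.02, 8.26, 8.28 and 8.40 in corn oil and 8.77, 8.28, 8.13, 8.99 and 8.91 after PCN. The groups there overlapped, with a log2 fold change of 0.10 ± 0.19 (SE, adjusted p = 0.829, limma), and 0.22 ± 0.18 without corn oil replicate 2 (adjusted p = 0.495, limma). The third probe set (1389909_at) was below the filter, with means of 5.90 ± 0.04 and 5.87 ± 0.13 (SD, n = 5 each).

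The Ncoa1 rise moved with how the second array type was scaled. Its probe set was in the brightest 10% of tested probe sets, whose median log2 fold change was 0.20 and of which 14.6% were called higher, against 3.76% of all. Spike-in controls, bacterial transcripts added to the sample and not made by the liver, averaged 8.22 to 8.31 in the corn oil arrays and 8.36 to 8.77 in the PCN arrays. The log2 fold change of Ncoa1 was 0.25 after quantile normalization (adjusted p = 0.128, with 3.94% of all probe sets called), 0.30 after cyclic loess (0.0748) and 0.15 when arrays were centred on 100 probe sets shared by the array types (0.239, all limma). The call was also lost without any 1 of corn oil replicates 1, 4 and 5 and PCN replicates 1 to 4 (adjusted p from 0.0566 to 0.0793, limma). It was kept without corn oil replicate 3 or PCN replicate 5.

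**Figure D4:**
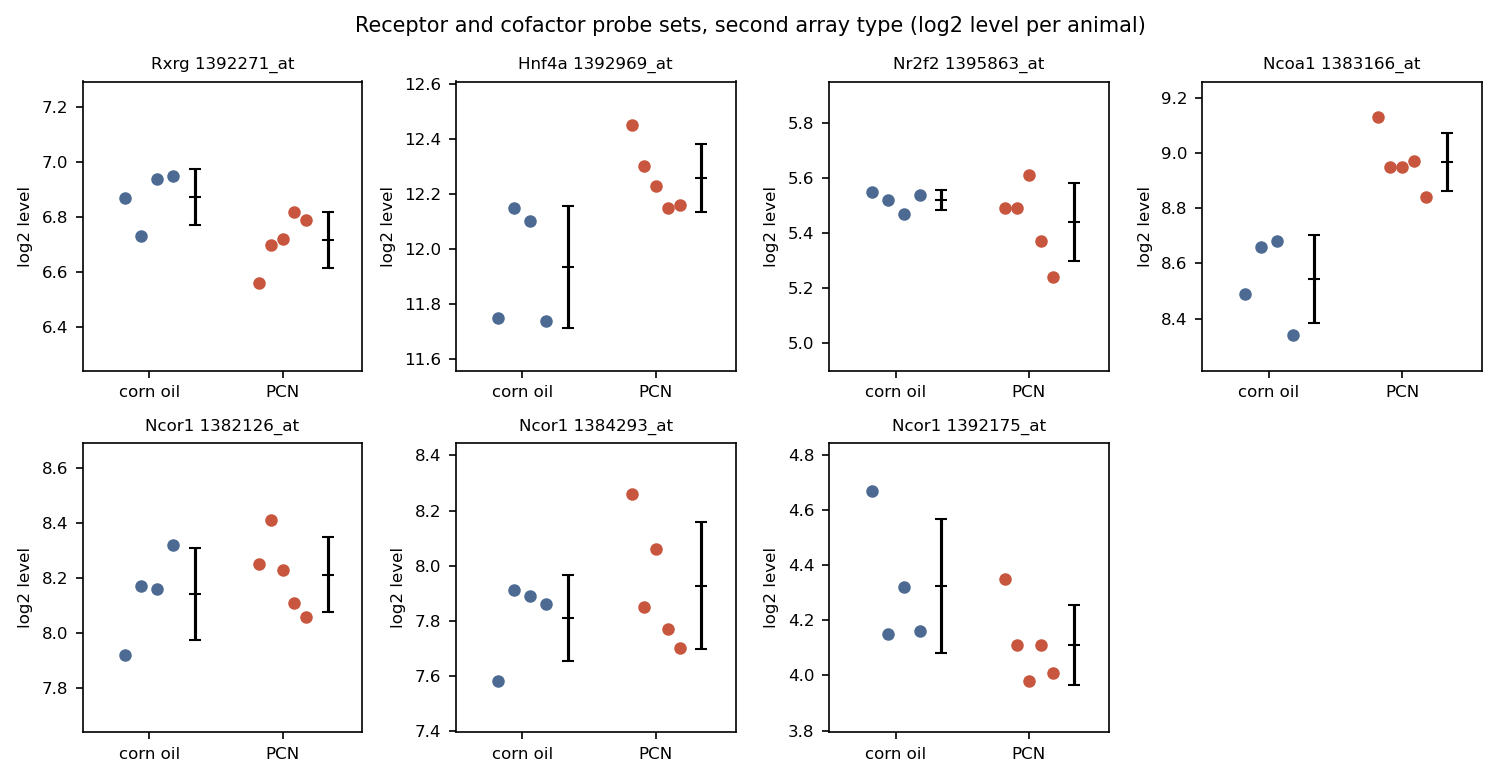
Log2 level of each member probe set in each liver on the second array type, corn oil (blue, 4 livers) and PCN (red, 5 livers), with mean and SD as bars. Ncoa1 lies at 8.34 to 8.68 in corn oil and 8.84 to 9.13 after PCN, and the other probe sets overlap between groups.

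**Figure D5:**
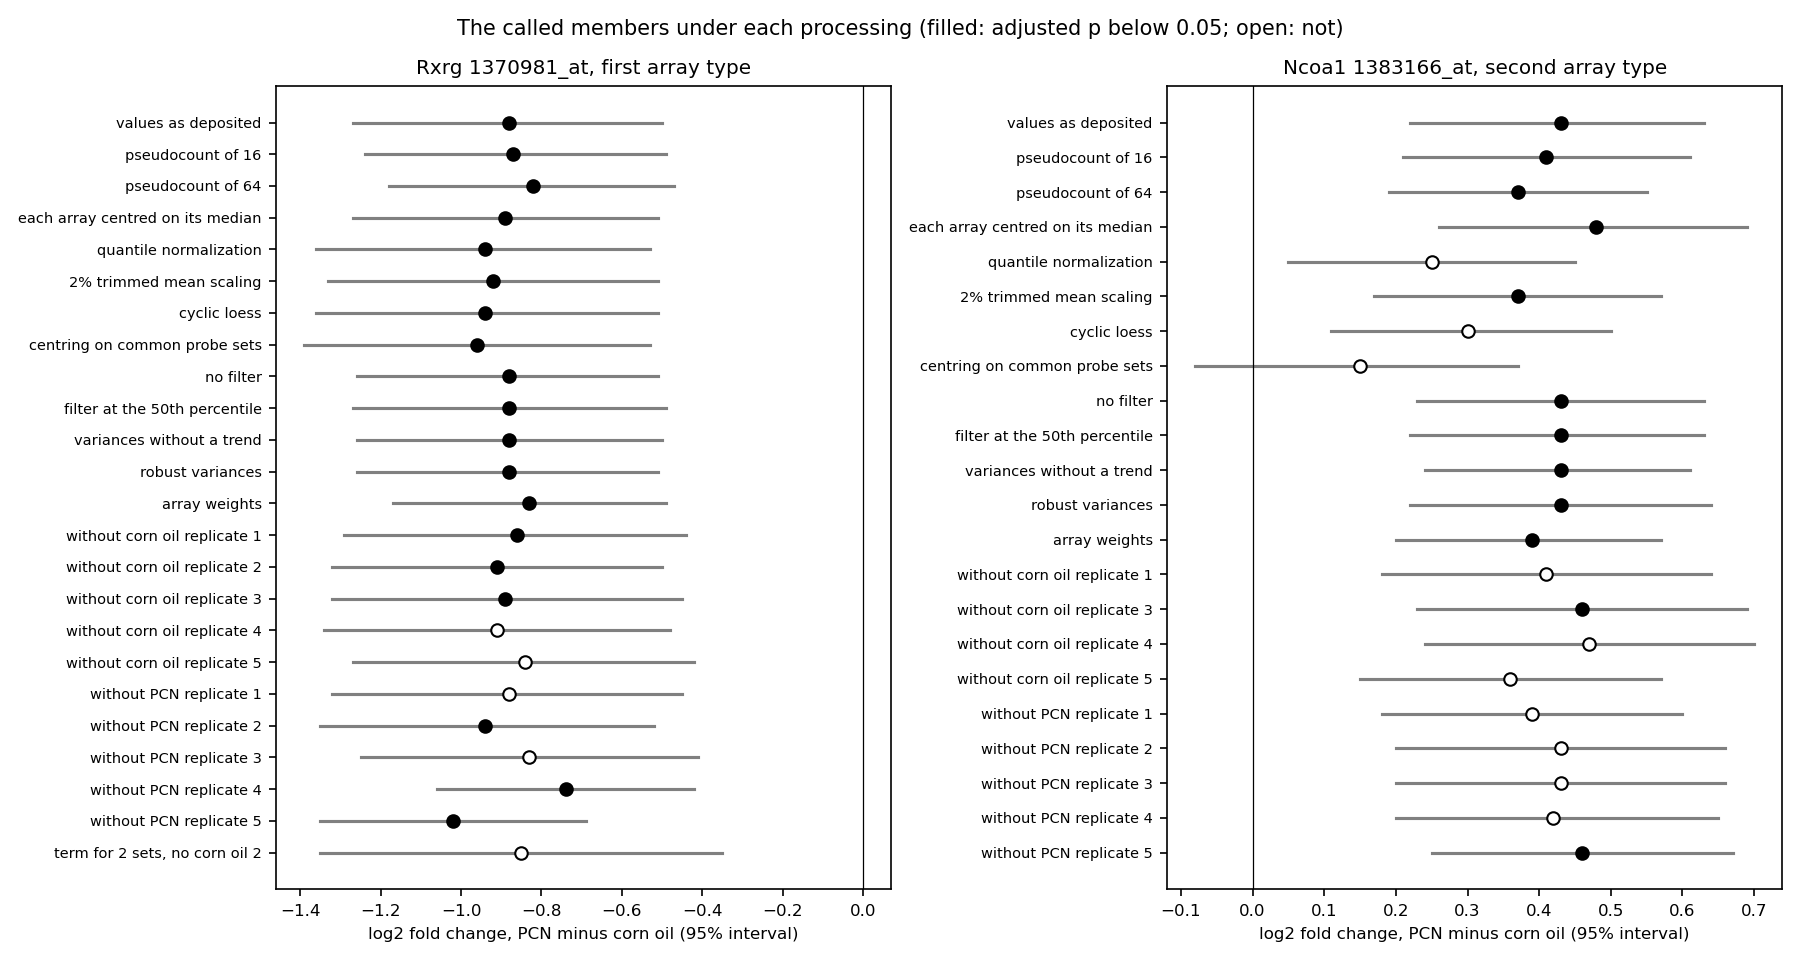
Log2 fold change (PCN minus corn oil) and 95% interval of the 2 called probe sets under each processing shown, filled where the adjusted p was below 0.05. Rxrg lies between -1.02 and -0.74 throughout, while Ncoa1 drops to 0.15 when arrays are centred on the common probe sets.

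Ncor1, a scaffold that brings histone deacetylase to unliganded receptors, had 5 probe sets, of which 4 were tested and none was called. On the first array type 1372102_at had 8.89 ± 0.12 in corn oil and 8.85 ± 0.21 after PCN, and 1398976_at 9.56 ± 0.19 and 9.51 ± 0.09 (SD, n = 5 each). The groups overlapped for both. Both had log2 fold changes of -0.05, with SEs of 0.11 and 0.10 (adjusted p = 0.859 and 0.842, limma). Leaving out corn oil replicate 2 gave -0.09 and -0.12 (adjusted p = 0.684 and 0.499, limma). On the second array type 2 probe sets had 0.07 ± 0.10 and 0.12 ± 0.12 (SE, adjusted p = 0.664 and 0.535, limma). The fifth (1392175_at), at 4.15 to 4.67 in corn oil and 3.98 to 4.35 after PCN, was too dim to be tested. For the first 2, the 95% intervals of -0.28 to 0.19 and -0.28 to 0.18 cover changes from 0.821-fold to 1.14-fold and from 0.825-fold to 1.13-fold.

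Of 39 other nuclear receptors listed, 24 were tested on the first array type. Limma called 0 in either direction, where 3.25% of all probe sets were called, and 3 had an unadjusted p below 0.05, where 17.7% of all did. On the second array type 6 were tested and 1 rose, where 3.76% of all probe sets did. Counts in lists this small are not read as differing from those shares. The gene that rose was Thrb, the thyroid hormone receptor beta, with 9.08 to 9.25 in corn oil and 9.42 to 9.73 in PCN livers, a difference of 0.37 ± 0.09 in log2 (SE, adjusted p = 0.0375, limma). Its probe set on the first array type had 0.42 ± 0.15 (adjusted p = 0.169, limma), and after quantile normalization the value on the second was 0.16 (adjusted p = 0.243, limma). The call was lost in 8 of 9 fits that left out 1 array, with an adjusted p of up to 0.0986 without corn oil replicate 1. Nr1h4, the bile acid receptor, had -0.23 ± 0.13, Nr3c1, the glucocorticoid receptor, -0.37 ± 0.13, and Ppara, the fatty acid sensor, 0.27 ± 0.25 (adjusted p = 0.40, 0.151 and 0.615, limma). Without corn oil replicate 2 Ppara had 0.05.

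Among other coregulators, limma called 0 of 13 tested on the first array type, where 3.25% of all probe sets were called. An unadjusted p below 0.05 was found for 1 of them, and for 17.7% of all probe sets. On the second array type limma called 3 of 15, 2 higher and 1 lower, where 3.76% and 1.64% of all probe sets were called. Ppargc1a, a coactivator of fasting metabolism, fell from 7.72 ± 0.30 (SD, n = 4) to 7.14 ± 0.14 (SD, n = 5), a log2 fold change of -0.58 ± 0.13 (SE, adjusted p = 0.0285, limma). After quantile normalization it was -0.60 (adjusted p = 0.027, limma). Gps2, a subunit of the corepressor complex that contains Ncor1, rose by 0.58 ± 0.12 (SE, adjusted p = 0.0219, limma), and by 0.30 when arrays were centred on common probe sets (adjusted p = 0.026, limma). Ncoa5 rose by 0.38 ± 0.10 (adjusted p = 0.0472, limma), and its value was 0.10 with that centring (adjusted p = 0.501, limma). The corn oil mean of Ncoa5, 5.50, lay just under the brightness filter of 5.51, so it was tested only through its PCN values (mean 5.87). Of 9 fits that left out 1 array, the call of Ppargc1a was lost in 6, that of Gps2 in 2 and that of Ncoa5 in 7. Their adjusted p values were highest without corn oil replicate 4, at 0.093, 0.0692 and 0.128 (limma).

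Of 7 proteins that hold the sensors in the cytoplasm or belong to the chaperone complexes of receptors, 5 were tested on the first array type and 2 rose, where 2.31% of all probe sets did. The co-chaperones Ptges3 and Stip1 had log2 fold changes of 0.38 ± 0.07 and 0.50 ± 0.12 (SE, adjusted p = 0.0161 and 0.0439, limma). Without corn oil replicate 2 Stip1 had 0.43 (adjusted p = 0.0601), and with the term for 2 sets of arrays neither was called (adjusted p = 0.0744 and 0.186, limma), nor was either when arrays were centred on shared probe sets (adjusted p = 0.106 and 0.098, limma). Leaving out 1 array gave adjusted p values of up to 0.0527 for Ptges3 (corn oil replicate 4) and 0.115 for Stip1 (PCN replicate 1). No gene was called on the second array type (0 of 2, with 1 at an unadjusted p below 0.05, limma). There 5.4% of all probe sets were called and 27.3% had such a p. Of 9 tested liver transcription factors that work beside the receptors, limma called 0 on the first array type (3 at an unadjusted p below 0.05). Over all probe sets there, 3.25% were called and 17.7% had such a p. On the second array type limma called 0 of 1 (0 at that level). The factors nearest the threshold were Cebpb at 0.50 ± 0.13 (adjusted p = 0.0653, limma) and Onecut1 at -1.30 ± 0.44 (adjusted p = 0.136, limma). Onecut1 spread from 9.22 to 12.19 after PCN, against 11.29 to 12.50 in corn oil.

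The retinoid X receptors also act with retinoic acid receptors, and 9 genes of retinoid handling were tested on the first array type, of which 2 rose and 0 fell (limma, with 0 lower also at an unadjusted p below 0.05), where 2.31% of all probe sets rose. Cyp26a1, which clears retinoic acid, had 6.39 to 7.66 in corn oil and 9.24 to 9.99 in PCN livers, and rose 5.46-fold (adjusted p = 0.000379, limma). Rdh10, which makes retinal, had 9.19 to 10.07 and 10.52 to 11.03, and rose 2.04-fold (adjusted p = 0.00981, limma). On the second array type Rdh10 rose 2.6-fold (adjusted p = 0.00119, limma), as 1 of 3 genes of this list tested there, where 3.76% of all probe sets rose. The list's median log2 fold change on the first array type was -0.09.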

How the data were processed

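Total RNA from adult rat liver was hybridized as biotinylated cRNA, per the labels' protocols. The authors deposited log2 expression values per probe set for 2 array types, which ran from 4.31 to 15.2 and from 3.10 to 14.1. The base was inferred from these ranges. Per the submitters' processing notes MAS5 was used, with no version, and how arrays were scaled to each other is not given in the sources used here. Array number, not depth, limits precision.

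Values were tested as deposited with limma 3.58.1 in R 4.3.3, each array type alone. The model had treatment as its sole term and its moderated variances followed an intensity trend. P-values are two-sided, adjusted by Benjamini and Hochberg's method over all tested probe sets, with a threshold of 0.05. The 57 control probe sets of each type and dim probe sets (mean level under the 30th percentile, 6.67 and 5.51) were left out, leaving 11106 and 10693. Gene names came from the platform annotation, updated by gene identifier to RefSeq on GRCr8. A list counts the brightest tested probe set of each gene per array type. The fit was run on simulated data with independent noise and planted changes. Those data held no array standing apart and no sets of arrays, so the run does not bear on either.

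Named genes were all members, up to 6 called members of each other list by size of change (or the 2 with the smallest p), and a fixed set of receptors and targets. Members and lists were chosen with earlier results of these data known. P-values weigh the difference between the groups against the spread between these samples within a group. Alternatives were 2 pseudocounts, 5 scalings, 2 filters, 3 variance settings, the replicate number as a block, leaving out each array, and a term for 2 sets of arrays.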

Additional observations from a re-analysis of the deposited data

Results flagged for a closer look

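In 42 groups of 4 or 5 livers, 1 value lay far from the rest 5 times, and chance gives this in about 5% of groups. For 3 of these it was corn oil replicate 2 on the first array type. Rxra read 7.76 there against 9.70 to 10.05 in the other corn oil livers, Hnf4a (1369289_at) 8.75 against 10.77 to 11.21, and Nr1i2 10.18 against 11.02 to 11.32. The other cases were in corn oil replicate 1. The dim Ncoa1 probe set 1389909_at read 5.97 against 5.86 to 5.89 on the first array type, and Ncor1 (1384293_at) read 7.58 against 7.86 to 7.91 on the second.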

How the results depend on the processing

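On the first array type, 256 probe sets were higher and 105 lower. Array weights gave 768 and 283, and the term for 2 sets of arrays gave 149 and 161. The lower count was 181 after quantile normalization, 176 after trimmed mean scaling, 168 after cyclic loess and 252 after centring on common probe sets. The share of calls that were higher, 70.9%, was 57.7%, 59.3%, 61.6% and 45.9% in these 4 scalings and 48.1% with the term. Leaving out 1 array gave 107 to 343 higher and 43 to 104 lower.

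On the second array type, 402 were higher and 175 lower (69.7% higher). The higher count was 210 after centring on common probe sets and 868 with array weights. The lower count was 72 after centring on medians (87.8% higher), 478 after trimmed mean scaling (45.4%), 101 after cyclic loess, 6283 after centring on common probe sets (3.23%) and 607 with array weights (58.8%). With that centring the median log2 fold change over all probe sets was -0.31, from -0.03. Leaving out 1 array gave 69 to 907 higher and 15 to 572 lower.

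Same-numbered arrays did not deviate together in every pair (correlations of -0.30 to 0.28 on the first type and 0.02 to 0.20 on the other), so the numbers were not taken to pair the livers. With the replicate block the first array type had 62 lower, and the second 163 higher (80.3%) and 40 lower. Rxrg kept its call with the block (adjusted p = 0.0265, limma). Ncoa1 lost it (adjusted p = 0.0789, limma), leaving 0 member probe sets called on the second array type with the block. Ptges3 (0.0581), Stip1 (0.0637) and Abcg8 (0.0744, adjusted p, limma) also lost their calls with the block, as did Thrb, Gps2 and Ncoa5 on the second array type.

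The count of called members, 1 on each array type, was 0 to 1 when single arrays were left out on either. It was 0 on the first with the term for 2 sets, and 0 on the second after quantile normalization and cyclic loess. After centring on common probe sets Ncoa1 was not called there and Rxrg (1392271_at) was. Of 424 member values under alternatives, 385 kept their direction and side of the threshold, or moved by less than their SD for the 3 untested probe sets. Most of these values were of probe sets that were not called. Of the called ones, Rxrg (1370981_at) kept its call in 19 of 24 alternatives and Ncoa1 (1383166_at) in 11 of 22. Sign changes were confined to members that were not called. With the term for 2 sets Rxra was -0.19, Nr1i2 -0.01 and Nr5a2 -0.25, while Nr1i3 went from 0.33 to 0.01 and Nr2f2 (1370063_at) from -0.19 to -0.01 without a change of sign. Array weights gave -0.04 for Nr1i2, and cyclic loess -0.04 for Hnf4a (1392969_at). Centring on common probe sets gave -0.02 for Rxrb and, for Ncor1 on the second array type, -0.21 (1382126_at) and -0.16 (1384293_at). Quantile normalization gave -0.03 for Ncor1 (1382126_at). Nr2f2 (1389554_at) was -0.04, -0.02, -0.03 and -0.05 after quantile, trimmed mean, cyclic loess and common probe set scaling. Leaving out single arrays gave ranges of -0.05 to 0.52 for Rxra, -0.07 to 0.23 for Nr1i2, -0.06 to 0.29 for Nr5a2 and -0.04 to 0.10 for Nr2f2 (1389554_at). For Ncor1 they were -0.12 to 0.02 (1372102_at), -0.12 to 0.01 (1398976_at) and 0.00 to 0.13 (1382126_at). The cause of these shifts was not tested.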
